A study of Gallus gallus with 10 samples.

Results

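APOA1 encodes apolipoprotein A-I, the main protein of high-density lipoprotein. The transcript described here is ENSGALG00000007114, 1 of 19561 features in the deposited table, chosen by its abundance over the libraries as an intestinal lipid transport transcript. Its measured FPKM thus selected it, and its high level is a description that was not tested. The deposited file gives no gene symbols, and none of the 25635 RefSeq genes to which it was compared (assembly bGalGal1.mat.broiler.GRCg7b) carries an Ensembl identifier. The name APOA1 came with the choice of the identifier and could not be checked against an annotation.

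Apolipoprotein A-I is made by the liver and by absorptive cells of the small intestine. It takes up phospholipid and cholesterol that cells export through the transporter ABCA1, and it activates the plasma enzyme LCAT, which esterifies the cholesterol. In mammals and birds the gene lies in a cluster with other apolipoprotein genes. In the RefSeq annotation of that assembly the protein-coding genes in order beside chicken APOA1 are APOC3, APOA4 and APOA5 on one side and SIK3 on the other. Their identifiers in the deposited table are not known, so their levels, those of other lipid transport genes and those of cell type markers are not given here.

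RNA was sequenced from crypts released with EDTA from the duodenum of brown Hy-Line hens at peak egg production. Of the 10 libraries, 3 came from hens on the basal diet (control). Hens given lactobacilli in that diet over 30 days, always as a pair, gave the other 7 libraries. The pairs L. ag. + L. av., L. sa. + L. av. and L. sa. + L. ag., abbreviated as in the labels, had 2 libraries each, and there was 1 more whose title and description contradict each other on the pair. That last library is called the library of unclear pair. It counts as pair-fed and enters values over all 10 libraries, but the reported comparisons place it in no single pair. Whether libraries stem from separate hens is not stated, so p-values cover only the spread among libraries, part of which may be technical.

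Low FPKM values (fragments scaled by feature length and by a library total) were whole multiples of a step. From the steps the feature lengths, the whole reads and the totals behind the division were recovered. Control libraries held 21.69 M to 23.73 M recovered reads and pair-fed libraries 15.26 M to 17.64 M, so depth and diet differ together and cannot be told apart. The total the authors divided by ran from 0.572 to 1.28 times the recovered reads. ENSGALG00000007114 came out at a length of 996 bases, and 1 read was worth 0.0331 to 0.110 FPKM. It held 78942 to 1187625 reads per library, so counting error was 0.0918% to 0.356% of each value and is small beside the spread between libraries.

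APOA1 stood at 24647, 8272 and 4798 FPKM in control replicates 1, 2 and 3. With L. sa. + L. ag. it was at 31316 and 37324 FPKM in replicates 1 and 2, and with L. sa. + L. av. at 36241 and 54902 FPKM. With L. ag. + L. av. it was at 14233 FPKM in replicate 1 and 130305 FPKM in replicate 2, and the library of unclear pair held 43304 FPKM. The groups overlapped at 1 point, where control replicate 1 lay above L. ag. + L. av. replicate 1. In 20 of the 21 combinations of a pair-fed with a control library the pair-fed value was higher, and 6 of the 7 pair-fed libraries lay above the highest control library. In these bulk libraries, more cells of a type that makes APOA1 and more APOA1 RNA per cell cannot be told apart.

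**Figure D1:**
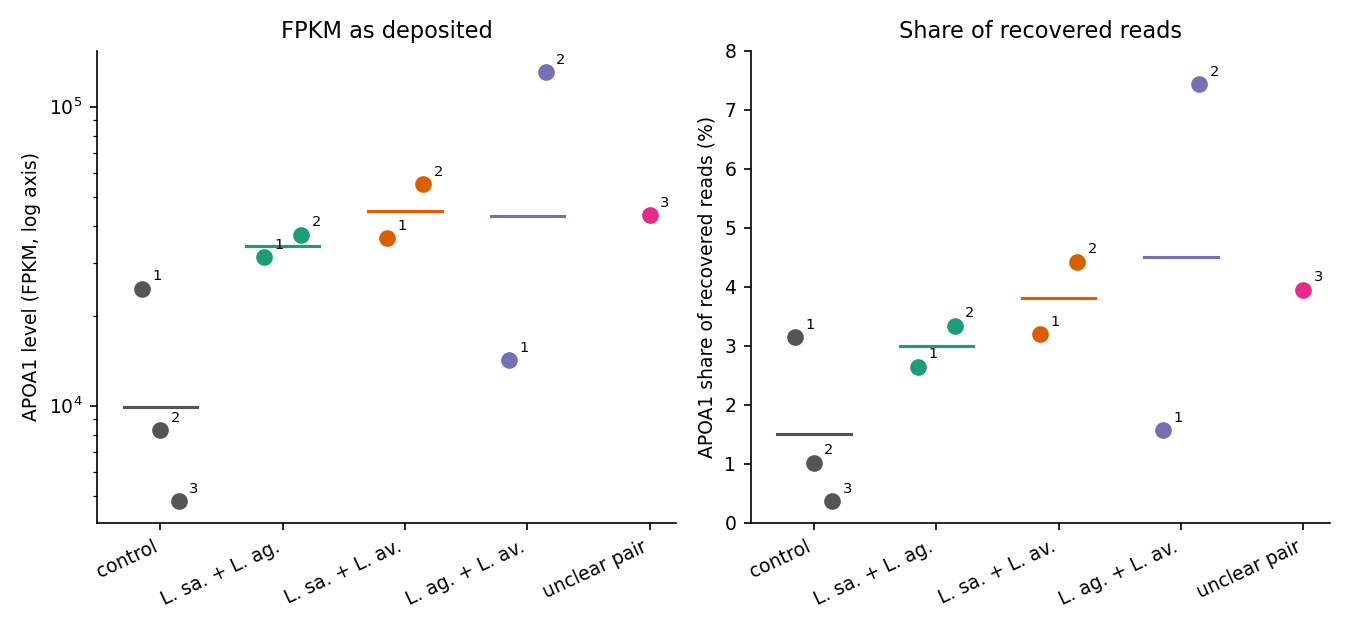
APOA1 level in FPKM on a log axis (left) and as a percent of recovered reads (right) in the 10 libraries, with replicate numbers beside the points. Bars are the geometric mean on the left and the mean on the right. Control replicate 1 lies among the pair-fed libraries, and L. ag. + L. av. holds both the lowest and the highest pair-fed value, 14233 and 130305 FPKM.

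The mean level was 12572 ± 10600 FPKM under the control diet (SD, n = 3). It was 34320 ± 4249 FPKM with L. sa. + L. ag. (SD, n = 2), 45572 ± 13195 FPKM with L. sa. + L. av. (SD, n = 2) and 72269 ± 82075 FPKM with L. ag. + L. av. (SD, n = 2). In geometric means the order was 9927 FPKM for control, 34188 with L. sa. + L. ag., 43065 with L. ag. + L. av. and 44606 with L. sa. + L. av. Neighbouring pairs in this order did not differ beyond their spread. L. ag. + L. av. leads the arithmetic means through replicate 2 alone.

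Spread inside a diet was wide. In FPKM the highest control library was 5.14 times the lowest, and the L. ag. + L. av. libraries lay 9.16-fold apart. The L. sa. + L. ag. libraries lay 1.19-fold apart and those of L. sa. + L. av. 1.51-fold. As a share of recovered reads the control libraries spanned 8.70-fold and those of L. ag. + L. av. 4.75-fold, so which group spread widest depended on the scaling. On that scale L. sa. + L. ag. spanned 1.26-fold and L. sa. + L. av. 1.38-fold. The residual SD of APOA1 around the group means was 1.28 on the log2 scale, where the median of the other 12039 features tested was 0.453 and 176 of them had a larger one. Among the other 61 tested features with a control mean above 1000 FPKM the median was 0.803, and 8 exceeded APOA1. APOA1 was thus one of the more variable abundant transcripts between libraries fed the same diet.

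APOA1 was the most abundant feature by FPKM in 4 libraries. These were control replicate 1, L. sa. + L. ag. replicate 2, L. ag. + L. av. replicate 2 and the library of unclear pair. Its rank was 5 in L. sa. + L. ag. replicate 1, 4 and 3 in L. sa. + L. av. replicates 1 and 2, and 8 in L. ag. + L. av. replicate 1. In control replicates 2 and 3 it ranked 8 and 20. The rank depends on other features as well. ENSGALG00000018373, the most abundant feature in those 2 libraries, stood there at 61407 and 174435 FPKM, against 22188 FPKM in control replicate 1. Relative to the median tested feature of the same library, APOA1 was 875 to 4334 times as high in control libraries and 2523 to 23748 times as high in pair-fed libraries.

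As a share of recovered reads, which does not use the authors' totals, APOA1 took 3.14%, 1.02% and 0.361% of control replicates 1, 2 and 3. The shares were 2.65% and 3.34% with L. sa. + L. ag., 3.20% and 4.42% with L. sa. + L. av., 1.56% and 7.43% with L. ag. + L. av., and 3.95% in the library of unclear pair. On this scale control replicate 1 also lay above L. sa. + L. ag. replicate 1, and 19 of the 21 combinations had the pair-fed library higher. The mean share was 1.51 ± 1.45% under control (SD, n = 3) and 3.79 ± 1.85% with a pair (SD, n = 7), 2.52 times the control mean, where the FPKM means stood 3.95-fold apart. L. ag. + L. av. replicate 2, with the highest FPKM, also had the lowest total relative to its reads, 0.572. Its FPKM values are thus all higher than on division by its recovered reads. The typical feature as deposited still stood near that of the other libraries. Median-ratio size factors of the FPKM values were 0.966 to 1.03 over the 10 libraries and 1.03 in that library.

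Across any pair against control, APOA1 was higher. This comparison pools libraries of different pairs, and in it diet cannot be told apart from depth. On the log2(FPKM + 1) scale its difference was 2.04 ± 0.66 (SE; 95% interval 0.60 to 3.48), or 4.11-fold with an interval of 1.51 to 11.1. Limma gave an adjusted p of 0.0432 over 12040 features (n = 7 and 3), just under the threshold of 0.05. With the pair groups fitted apart, the mean of the 3 pair groups minus control was 2.02 and did not pass (limma adjusted p = 0.134). In the pooled comparison the threshold was met by 24.1% of all features tested, and by 13.9% as higher. That count of 2901 features depended on single libraries and on the design: 125 were called without control replicate 1, 6 without control replicate 2 and 10 for the mean of the 3 pair groups. After division by the FPKM sum 487 features were called higher, where 1668 were as deposited. Every pair-fed library lay above every control library for 12.1% of features, and APOA1 was not among them. A 2-sided exact permutation test on APOA1 alone gave p = 0.0167, where the smallest p that 120 splits can give is 0.00833. That p makes no allowance for the choice of the gene, made with earlier results of these data known.

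The call was lost without any 1 of 8 of the 10 libraries. This happened when any of control replicates 1 (limma adjusted p = 0.0593), 2 (0.142) and 3 (0.157) was left out. It was likewise lost without L. sa. + L. ag. replicate 2 (0.0659), L. sa. + L. av. replicate 1 (0.0684) or 2 (0.0702), L. ag. + L. av. replicate 2 (0.0610) or the library of unclear pair (0.0748). Without L. sa. + L. ag. replicate 1 and without L. ag. + L. av. replicate 1 it stood (0.0412 and 0.0155). Without control replicate 1, the control library with the most APOA1, the unadjusted limma p of APOA1 fell from 0.00932 to 0.00213 and the exact permutation p was 0.0278, the smallest that 36 splits can give. The adjusted p rose there as the calls over all features dropped to 125. The fold was 6.47 without that library and 2.85 without control replicate 3, the one with the least.

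**Figure D2:**
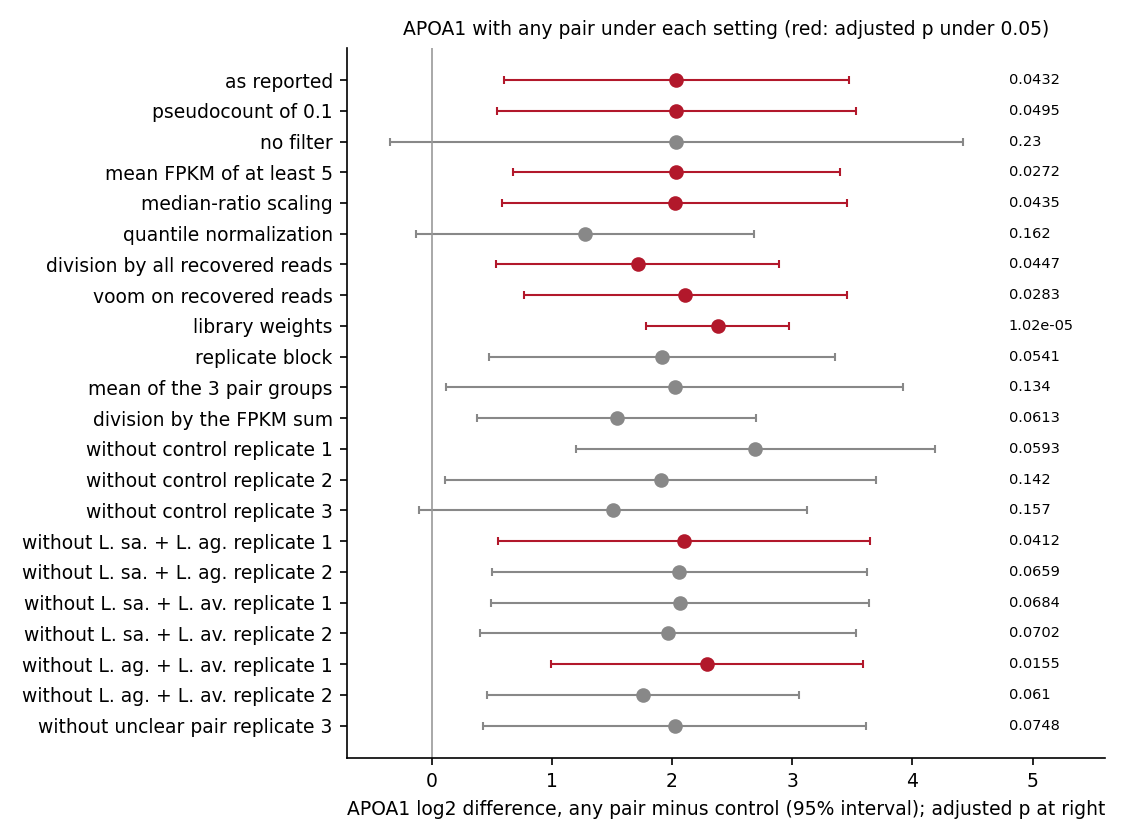
APOA1 log2 difference of any pair minus control (points) with 95% intervals from limma, for the reported fit and 21 other settings, with the adjusted p at the right and red marking adjusted p under 0.05. All differences lie above 0, from 1.28 to 2.69, and 13 of the 21 other settings do not pass the threshold.

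Under other scalings APOA1 stayed above the median of all features. After division by all recovered reads the log2 difference was 1.71 while the median of all features moved to -0.21, so APOA1 stood 1.92 above that median. After division by each library's FPKM sum the difference was 1.54 with a median of -0.35, 1.89 above it (limma adjusted p = 0.0613). As deposited, APOA1 stood 2.01 above the median of 0.03. With median-ratio scaling the difference was 2.02 (limma adjusted p = 0.0435). Quantile normalization, which makes the value distributions of all libraries identical, brought APOA1 to 1.28 (adjusted p = 0.162). Under it the control mean went from 13.28 to 14.06 on the log2 scale and the pair-fed mean from 15.31 to 15.34. It gave APOA1 the same value, 15.96, in every library where APOA1 was the most abundant feature. Control replicate 1 and L. ag. + L. av. replicate 2 were thus made equal.

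None of the single pairs passed against control. With L. sa. + L. ag. the log2 difference was 1.78 ± 1.10 (SE; 95% interval -0.67 to 4.24; limma adjusted p = 0.420), in a comparison where 0.0498% of features were called. With L. sa. + L. av. it was 2.17 ± 1.10 (SE; interval -0.29 to 4.62; limma adjusted p = 0.230), with 0.0664% of features called. With L. ag. + L. av. it was 2.12 ± 1.10 (SE; interval -0.34 to 4.57; limma adjusted p = 0.265), with 0% called by limma. There 2727 features had an unadjusted p under 0.05, and voom weights called 4. These 3 comparisons share the control libraries. Both libraries of L. sa. + L. ag. and both of L. sa. + L. av. lay above all 3 control libraries, and the 2 of L. ag. + L. av. straddled control replicate 1.

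On APOA1 alone, 2-sided exact permutation tests gave p = 0.2 for L. sa. + L. ag., p = 0.2 for L. sa. + L. av. and p = 0.3 for L. ag. + L. av. With 2 libraries against 3 the smallest p is 0.1, so this test could not pass. The L. ag. + L. av. value rested on which library was read. Without replicate 1 its log2 difference from control was 3.71 (limma adjusted p = 0.0561), and without replicate 2 it was 0.52 (0.937), each with a lone library assumed to vary like the other groups. L. sa. + L. av. passed only with library weights (log2 difference 2.43, limma adjusted p = 0.0129). Those weights called 4818 of the 12040 features tested, where the reported fit called 8, so passing there says little about APOA1 itself.

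**Figure D3:**
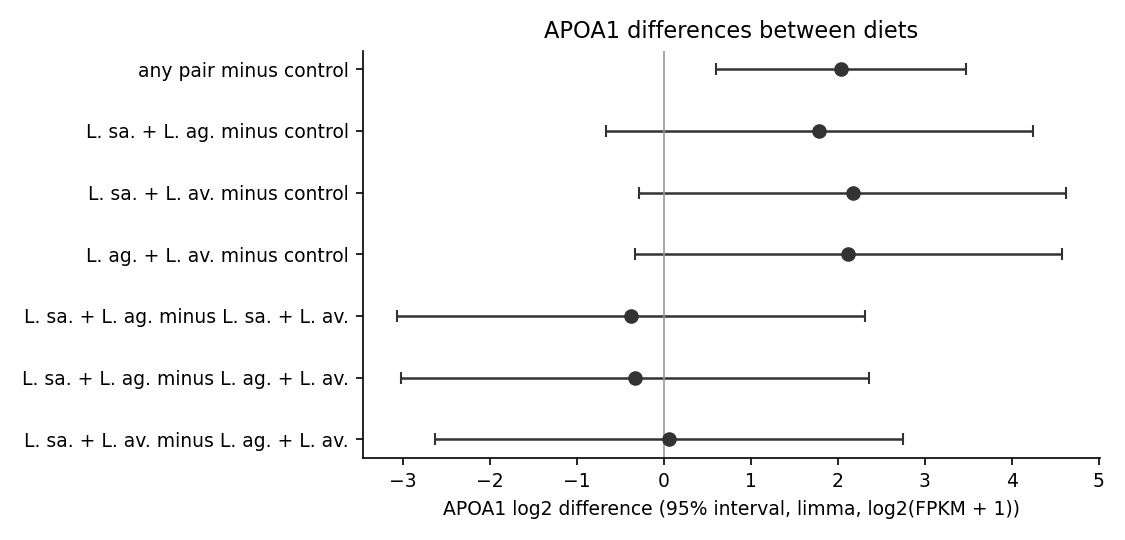
APOA1 log2 differences (points) with 95% intervals from limma for the 7 comparisons, on the log2(FPKM + 1) scale. The interval of any pair minus control, 0.60 to 3.48, lies above 0, and the intervals of the 6 comparisons of single diets all include 0.

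Between pairs APOA1 did not pass in any comparison, and the intervals were wide. L. sa. + L. ag. minus L. sa. + L. av. was -0.38 on the log2 scale (95% interval -3.07 to 2.31), L. sa. + L. ag. minus L. ag. + L. av. was -0.33 (-3.02 to 2.36), and L. sa. + L. av. minus L. ag. + L. av. was 0.05 (-2.64 to 2.74). Each had a limma adjusted p of 1. A difference of up to 4.95-fold in favour of L. sa. + L. ag. over L. sa. + L. av. lies within its interval, so these libraries do not show that the pairs act alike. The percentages of all features called were 0%, 0.00831% and 0%, with 196, 490 and 352 features at an unadjusted p under 0.05 and 0 called by limma's voom weights in each. Each of those counts is below the 0.05 share of the 12040 features tested that would fall there without any difference.

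Set beside transcripts with a control mean above 1000 FPKM, APOA1 lay towards the upper end. Most of these were less abundant than APOA1, which had a control mean of 12572 FPKM and ranked 8 by it. Of the other 61 tested features with a control mean above 1000 FPKM, the median log2 difference of any pair minus control was 0.73, and 5 exceeded the 2.04 of APOA1. Narrowed to the other 30 such features of 500 to 1000 bases, the median was 0.75 and 2 exceeded it. Including APOA1, 10 of those 31 features were called higher and 0 lower, where 1668 (13.9%) of all 12040 features tested were called higher and 1233 lower. Features of 500 to 1000 bases leaned higher at any level. Including APOA1, 459 of those 1845 were called higher and 82 lower. The median of the other 1844 was 0.50, and 54 exceeded APOA1. Over all other tested features the median was 0.03 and 142 exceeded APOA1. These are descriptions of the same contrast, with no test of APOA1 against the class.

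The nearest features in mean FPKM followed another course. ENSGALG00000018370 and ENSGALG00000018368, next above, had log2 differences of 0.23 and 0.04 with any pair. ENSGALG00000018360 and ENSGALG00000018366, next below, had 0.03 and 0.61, and none of these 4 passed. ENSGALG00000018370 stood at 13564, 40936 and 129772 FPKM in control replicates 1, 2 and 3, so it was lowest in the control library where APOA1 was highest. Its level ranged from 55.0% to 2705% of that of APOA1 over the 10 libraries. The other 3 rose with it from control replicate 1 to control replicate 3. ENSGALG00000018368 went from 12648.5 to 110626 FPKM, ENSGALG00000018360 from 5309 to 54105 and ENSGALG00000018366 from 3973 to 34932.5. These 4 features thus moved together among the control libraries and are not 4 separate comparisons.

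Other features tracked APOA1 closely. Among 6451 other features with a mean of at least 5 FPKM, the Pearson correlation with APOA1 on the log2(FPKM + 1) scale over the 10 libraries had a median of 0.301, and 167 exceeded 0.9. These correlations are given as descriptions, since all features of a library share its total, depth and diet. The 4 most alike were ENSGALG00000011391 (r = 0.991), the feature numbered 835 by the authors (0.988), ENSGALG00000021106 (0.984) and the feature numbered 2070 by the authors (0.982). On values divided by all recovered reads, 3 of these were again among the 4 most alike.

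ENSGALG00000011391, of 1886 bases, was at 123, 54.5 and 27.9 FPKM in control replicates 1, 2 and 3. It was at 187 and 200.1 FPKM with L. sa. + L. ag., 159 and 229 with L. sa. + L. av., 89.4 and 484 with L. ag. + L. av., and 221 in the library of unclear pair. Its level stayed between 0.371% and 0.659% of that of APOA1 while APOA1 itself spanned a 27.2-fold range. A ratio of features within a library does not depend on the library total. The other 3 of the most alike were 12.0% to 20.4% (feature 835, of 486 bases), 12.2% to 23.4% (ENSGALG00000021106, of 425 bases) and 0.617% to 1.31% (feature 2070, of 906 bases) of APOA1.

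On deviations from the group means in the 9 libraries of known pair or control, the r of these 4 lay between 0.980 and 0.994. They were picked over the same libraries, and the 2 libraries of a pair deviate by equal and opposite amounts, so these values are no separate evidence of likeness. By that measure the most alike were the feature numbered 1238 by the authors (0.996), at 4.75 to 14.1 FPKM, and ENSGALG00000011391. Of the 167 features above 0.9 over the 10 libraries, 87 were also above 0.9 on values divided by all recovered reads and 77 on deviations from the group means. Their median length was 1635 bases against 1759 for all 6451 features, and their median level 71.6 against 18.1 FPKM. Identifiers of the authors' own were held by 19 (11.4%) of them, against 8.65% of all 6451.

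Opposite courses were rarer, and they depended on the scaling. Below -0.9 lay 29 features, and 0 of these were below -0.9 on values divided by all recovered reads. The least alike were ENSGALG00000008939 (r = -0.973), at 13.0, 24.6 and 25.6 FPKM in control replicates 1, 2 and 3 and at 7.56 FPKM in L. ag. + L. av. replicate 2, and ENSGALG00000009250 (r = -0.971). Divided by all recovered reads, their r was -0.806 and -0.759. On deviations from the group means the least alike were ENSGALG00000005940 (-0.998) and ENSGALG00000006708 (-0.995). These low features had means of 9.62 and 5.10 FPKM.

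**Figure D4:**
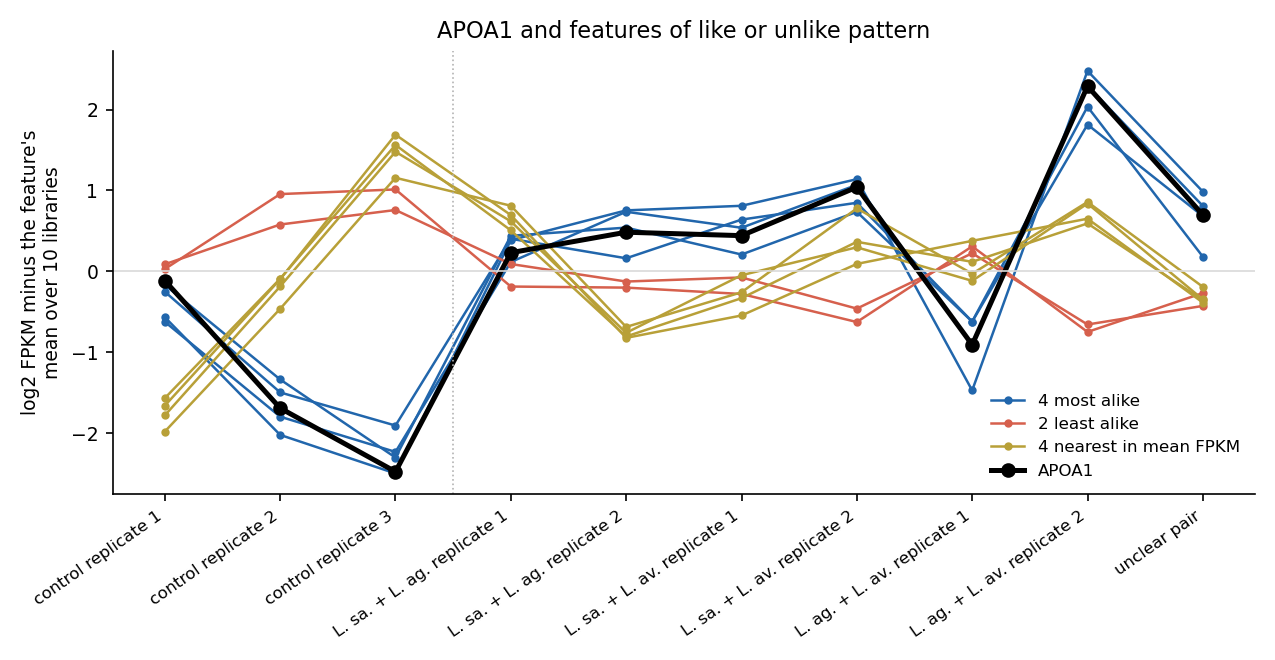
Log2 FPKM minus each feature's mean over the 10 libraries for APOA1 (black), the 4 features most alike over the 10 libraries (blue), the 2 least alike (red) and the 4 nearest in mean FPKM (ochre), with the dotted line between control and pair-fed libraries. The blue lines follow APOA1, with r of 0.982 to 0.991, and the ochre lines run together and opposite to it among the 3 control libraries.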

How the data were processed

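The authors deposited 1 table of FPKM values, 1 column per library. CASAVA 1.8, HISAT2 and featureCounts 1.5.0-p3 appear in the submitters' processing notes, and per the labels libraries were made with a TruSeq kit. Which genome build and annotation were used, and how the library totals were set, was not given in the sources used here. From the FPKM steps, lengths were recovered for 17374 of 17375 features above 0. A length was accepted only if every value above 0 lay within 0.02 reads of whole. That 100% of their values do so follows from this rule. On simulated data the true length came back for 98.88% of 3752 features. Values were tested as deposited on log2(FPKM + 1) with limma 3.58.1 in R 4.3.3 (eBayes with a trend, Benjamini-Hochberg over all features), for the 12040 features that reached 1 FPKM in 2 or more libraries. Any pair against control was fitted on 7 pair-fed and 3 control libraries. The 6 others came from 1 fit with all groups, the library of unclear pair having its own coefficient. The fits were also run on simulated data with noise drawn independently for each feature, without effects shared by the features of a library. That run cannot show how far the calls depend on single libraries. Permutation tests were exact and 2-sided. The features named beside APOA1 are the 4 most and 2 least alike over 10 libraries, the 2 most and 2 least alike within groups, and the 2 next above and below in mean FPKM. The gene, the lists and the tests were chosen with earlier results of these data known. Lists of lipid transport genes and cell type markers were planned and gave no result, since 0 identifiers matched the RefSeq table.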

Additional observations from a re-analysis of the deposited data

Results flagged for a closer look

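Among the 7 pair-fed libraries, APOA1 in L. ag. + L. av. replicate 2 stood far from the rest, at 130305 FPKM where the next highest library had 54902 FPKM. The gap was 0.650 of the whole range, above the critical value of 0.568 for 7 libraries. It was 0.390 on the log2(FPKM + 1) scale, 0.513 as a percent of recovered reads and 0.505 as a percent of the FPKM sum, none of which passed that value. In that library the authors' total was 0.572 times the recovered reads, the lowest of the 10. Of 5 measures of APOA1 examined, 1 had such a library. The measures rescale the same 7 libraries, so this count cannot be set against the 1 in 20 that chance gives. The 7 libraries come from different pairs, so they are not replicates of 1 diet.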

How the results depend on the processing

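With any pair against control, APOA1 kept its direction in all 21 alternatives and the call in 8 of them, with limma adjusted p from 1.0e-05 (library weights) to 0.230. Not all of these could turn it. No filter and a filter at a mean of 5 FPKM cannot change the difference itself. A pseudocount of 0.1 hardly can at this level (2.04). Median-ratio scaling, with size factors of 0.966 to 1.03, left it at 2.02. The call was lost with no filter (log2 difference 2.04, adjusted p 0.230), quantile normalization (1.28, 0.162), the replicate block (1.92, 0.0541), the mean of the 3 pair groups (2.02, 0.134) and division by the FPKM sum (1.54, 0.0613). Leaving out each library gave log2 differences of 1.51 to 2.69 and adjusted p of 0.0155 to 0.157. The exact permutation test gave 1.54 with p = 0.0583 after division by the FPKM sum, and p from 0.0119 to 0.111 with 1 library left out (log2 differences again 1.51 to 2.69). Division by the FPKM sum and the alternatives of the permutation test were chosen after seeing the data. Causes were not tested.

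The count of features called with any pair was 2901. It was 8375 with library weights, 10 for the mean of the 3 pair groups, 1805 after division by the FPKM sum and 6 to 3915 with 1 library left out (125 without control replicate 1, 6 without control replicate 2). Against control, L. sa. + L. ag. had 6 calls (at most 13 in an alternative), L. ag. + L. av. 0 (1303) and L. sa. + L. av. 8 (4818). With all recovered reads as divisor, the calls with any pair were 896 higher and 1197 lower, where they were 1668 and 1233 as deposited, with quantile normalization 1310 and 1572, and with the FPKM sum 487 and 1318.

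APOA1 with L. sa. + L. av. against control passed with library weights (2.43, adjusted p 0.0129). Between pairs the sign of the APOA1 difference turned in a few alternatives, none with an adjusted p under 0.64. For L. sa. + L. ag. minus L. ag. + L. av. it was 0.48 with quantile normalization, and -1.93 to 1.26 with 1 library left out. For L. sa. + L. av. minus L. ag. + L. av. it was -0.066 with voom on recovered reads, and -1.55 to 1.65 with 1 library left out, -0.25 without L. sa. + L. av. replicate 2. Voom took the authors' totals as library sizes, so it is not free of them. For the other 30 features of 500 to 1000 bases with a control mean above 1000 FPKM, the median moved with the processing. It was 0.42 after division by all recovered reads and 0.25 after division by the FPKM sum. With 1 library left out it was 0.33 to 1.06.

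Replicate numbers were not taken as pairs, since 3 of 9 distinct correlations of same-numbered libraries exceeded 0.1 (range -0.295 to 0.443). Under the replicate block no other APOA1 call changed. At 78942 or more reads per library counting error on APOA1 is small, while depth and diet cannot be told apart.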
